A study of Mus musculus with 7 samples.

Results

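The mitochondrial ribosomal protein genes were taken as all genes of the deposited count table whose symbol is Mrpl or Mrps followed by a number and at most 1 letter, which gave 77 of 24062 genes. RNA was sequenced from whole spleens of mice aged 2 to 3 months. The mutant group was 3 enlarged spleens with the genotype Vav1-iCre;Brca1F22-24/F22-24, and the wild-type group was 4 spleens of C57BL6 mice that are Brca1+/+. Vav1-iCre is a Cre recombinase under the control of a gene active throughout blood cells, and Brca1 encodes a repair protein of homologous recombination. The mutant group alone carries the recombinase and the altered allele and is described as enlarged, and strain is named for wild type alone, so effects of these cannot be told apart. The labels do not say how the animals were matched or whether littermates were used, so p-values reflect only how these spleens spread.

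Mitochondrial ribosomal proteins are encoded in the nucleus, made in the cytosol and imported into mitochondria, where they assemble with RNAs of the mitochondrial genome into a large and a small subunit. The finished mitoribosome makes the few proteins encoded by mitochondrial DNA, all of them subunits of oxidative phosphorylation complexes. Some of its proteins have bacterial homologues and others are found in mitochondria only. Activated lymphocytes are known to build more mitochondria and to need mitochondrial translation.

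Facts of the whole series bear on each value below. The mutant libraries held 30660980 to 51680976 counts and the wild-type libraries 26889712 to 63612532. Every gene of the family had at least 227 counts in every library, and all 77 were tested. Counts summed over Brca1 cannot show the loss of exons, and that gene averaged 52.5 ± 13.3 CPM (counts scaled to library size) in mutant spleens and 38.7 ± 26.4 CPM in wild-type spleens (SD, n = 3 and 4). Spleen markers were present in wild type, where 10 mature B cell genes summed to 4155 to 5606 CPM. In mutant spleens the same genes summed to 30.7 to 237 CPM.

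Expression of the family was higher in mutant spleens almost throughout. Of the 77 genes, 76 rose and 0 fell in edgeR's quasi-likelihood test at a Benjamini-Hochberg adjusted p under 0.05 over 15188 genes, and Mrpl24 alone was not called. Across all tested genes 28.5% rose and 28.9% fell. No member was lower in mutant spleens at an unadjusted p under 0.05 either, and DESeq2 and limma-voom likewise gave 0 lower. In 76 of the genes, every mutant library lay above every wild-type library, against 29.2% of all tested genes. At least 2-fold increases were found in 64 of the 77, against 17.2% of all tested genes. The median log2 fold change (mutant over wild type) of the family was 1.29, which is 2.44-fold, while the median of all tested genes was -0.02. With scaling by library size alone, 3153 of all tested genes rose and 5129 fell, against 4334 and 4390 with the scaling used here.

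The changes were narrow in range. Members' log2 fold changes had quartiles of 1.05 and 1.44, against -1.07 and 0.76 for all tested genes, and 69 of the 77 lay within 0.5 of the family's median. The lowest was 0.26 and the highest 2.16. Only 12.8% of all tested genes had a log2 fold change above the family's median. In spleens, as in any bulk sample, fewer cells of a type and less RNA per cell cannot be told apart.

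**Figure D1:**
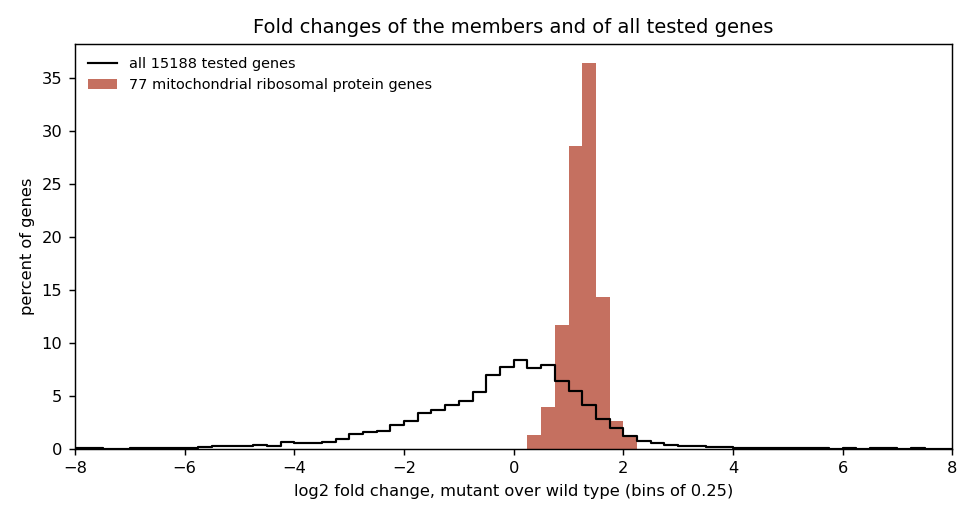
Distribution of log2 fold changes (mutant over wild type, horizontal axis, bins 0.25 wide) as a percent of genes, with bars for the 77 mitochondrial ribosomal protein genes and a line for all 15188 tested genes; the axis ends at 8 in each direction. The bars lie between 0.26 and 2.16, while the line is centred near 0.

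The mutant spleens differed among themselves in how high the family stood. Together the 77 genes took 0.340, 0.419 and 0.436% of the counts of mutant libraries 1, 2 and 3, against 0.205, 0.183, 0.207 and 0.206% in the 4 wild-type libraries. Their summed level averaged 4405 ± 733 CPM in mutant spleens and 1866 ± 94.2 CPM in wild-type spleens (SD, n = 3 and 4), a ratio of 2.36. Relative to the wild-type mean of each gene, the median member stood at 0.98, 1.31 and 1.48 on the log2 scale in mutant libraries 1, 2 and 3, and at 0.065, 0.002, 0.005 and -0.078 in wild-type libraries 1 to 4. Mutant 1 was the lowest mutant library for 65 of the 77 genes, and mutant 3 the highest for 59. All 77 genes lay above their wild-type mean in each of the 3 mutant libraries. Within a group, the highest library exceeded the lowest by a median of 1.45-fold over the members among mutants and 1.22-fold among wild types.

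**Figure D2:**
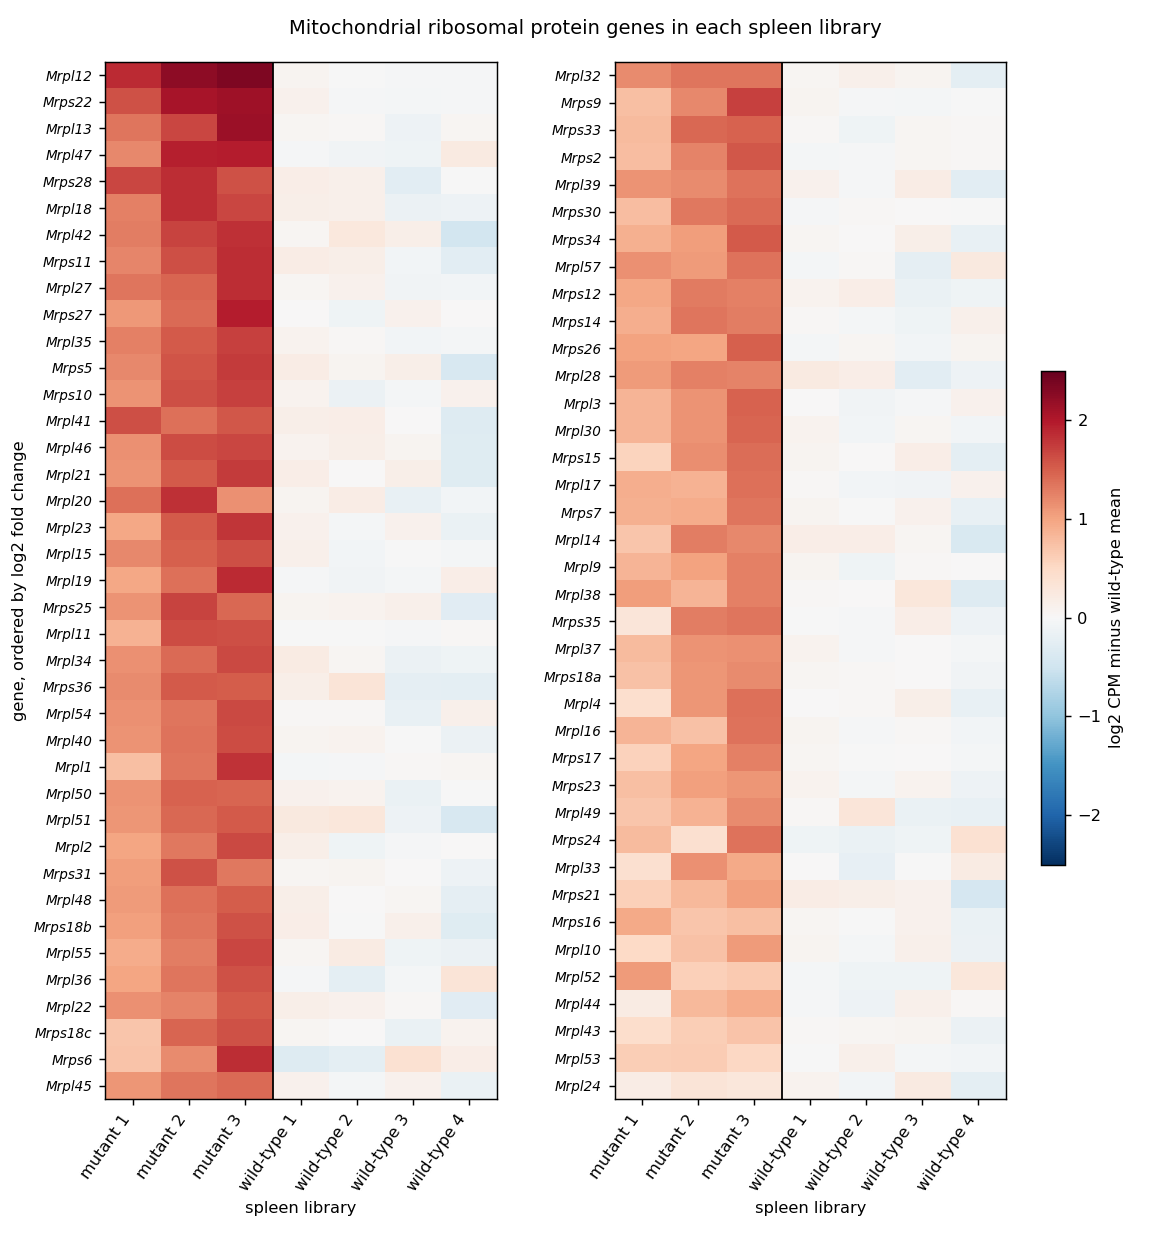
Heat map of the 77 genes (rows, ordered by log2 fold change) in each spleen library (columns, mutant 1 to 3 left of the line and wild type 1 to 4 right of it); colour gives log2 CPM minus the gene's wild-type mean. The mutant columns are red for nearly every gene, palest in mutant 1, and the wild-type columns stay near white.

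Both subunits rose together. Of 50 genes for large-subunit proteins 49 rose, with a median log2 fold change of 1.31, and of 26 genes for small-subunit proteins 26 rose, with a median of 1.25. The summed CPM of large-subunit genes exceeded that of small-subunit genes by 2.32-fold, 2.22-fold and 2.15-fold in the mutant libraries, and by 2.20-fold, 2.23-fold, 2.13-fold and 2.20-fold in the wild-type libraries. This ratio averaged 2.23 ± 0.0843 in mutant and 2.19 ± 0.0442 in wild type (SD, n = 3 and 4), and the groups overlapped. Of 46 members that the standard nomenclature names after a bacterial homologue 45 rose, with a median log2 fold change of 1.29. Of 30 that it names as mitochondrial 30 rose, with a median of 1.24; these include Mrps18a and Mrps18b, although both are related to bacterial S18. Mrps36, whose protein is now placed in the 2-oxoglutarate dehydrogenase complex rather than the ribosome, rose by 1.40 on the log2 scale (SE 0.19, adjusted p = 0.000802). GENCODE lists processed pseudogenes of Mrps36, Mrpl48 and Mrpl23, so their counts may include reads shared with such copies.

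**Figure D3:**
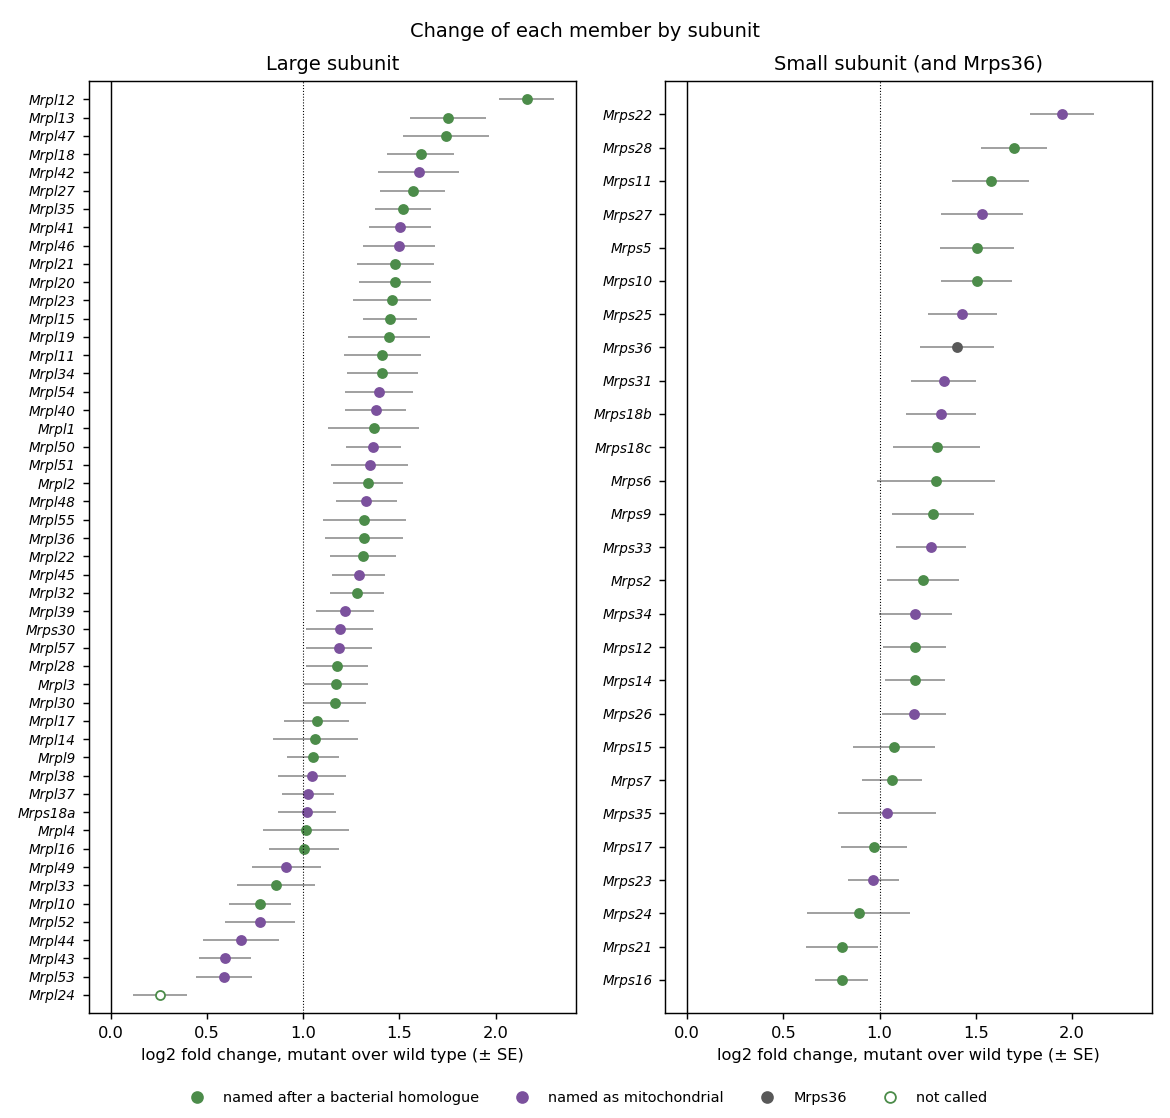
Log2 fold change of each gene (mutant over wild type, points, with bars of 1 SE) for large-subunit proteins on the left and small-subunit proteins with Mrps36 on the right; green marks proteins that the nomenclature names after a bacterial homologue, purple those it names as mitochondrial, grey Mrps36, and the open point the gene that was not called. The dotted line marks a 2-fold increase, which 64 of the 77 genes reached.

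The largest increase was in Mrpl12, which encodes the protein of the ribosomal stalk that recruits translation factors. It stood at 123, 159 and 171 CPM in mutant spleens, against 35.3, 33.6, 33.2 and 32.9 CPM in wild-type spleens. The wild-type libraries were nearly equal and every mutant library exceeded them at least 3-fold; the log2 fold change was 2.16 (SE 0.14, adjusted p = 0.000145). Its share of the family's summed CPM was 1.89 times as large in mutant as in wild-type spleens. Mrps22, a small-subunit protein without a bacterial homologue, came next. It stood at 35.1, 48.4 and 50.3 CPM in mutant spleens, against 12.4, 11.3, 11.2 and 11.3 CPM in wild-type spleens. The groups were far apart and the log2 fold change was 1.95 (SE 0.17, adjusted p = 0.000217). These 2 genes were the top 2 of the family under each of the alternatives run.

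Other genes followed by the size of their increase. Mrpl13, a homologue of a bacterial protein that joins the large subunit early in assembly, had 59.7, 75.4 and 105 CPM in mutant spleens, against 24.5, 24.2, 21.8 and 24.6 CPM in wild type. Its mutant libraries spread widely and none approached wild type (log2 fold change 1.75, SE 0.20). Mrpl47, a homologue of a protein at the exit of the peptide tunnel, had a log2 fold change of 1.74 (SE 0.22). Mrps28, a small-subunit protein, was at 29.1, 32.9 and 27.8 CPM in mutant spleens, against 10.3, 9.96, 7.57 and 9.10 CPM in wild type. Here mutant 1 was not the lowest of its group (log2 fold change 1.70, SE 0.17). Mrpl18, whose bacterial homologue binds the 5S ribosomal RNA, rose by 1.61 (SE 0.17), Mrpl42, a mitochondria-specific protein, by 1.60 (SE 0.21), and Mrps11, from the platform of the small subunit, by 1.58 (SE 0.20) on the log2 scale. The adjusted p of these 6 genes lay between 0.000326 (Mrps28) and 0.000722 (Mrpl42).

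Mrpl24, the homologue of a bacterial protein that starts assembly of the large subunit, was the exception. It stood at 97.2, 107 and 104 CPM in mutant spleens, against 91.0, 81.8, 99.2 and 72.1 CPM in wild-type spleens. Wild-type 3 lay above mutant 1, so the groups overlapped (log2 fold change 0.26, SE 0.14, adjusted p = 0.152). An interval of 1 SE on each side runs from 0.12 to 0.40, all of it below the lower quartile of the family. Its mean was 103 ± 4.95 CPM in mutant and 86.0 ± 11.7 CPM in wild-type spleens (SD, n = 3 and 4), the highest mean over all libraries of the family on a scale that also depends on gene length. Its share of the family's summed CPM in mutant spleens was 0.515 times that in wild type. It was the lowest member under each of the alternatives run. Its span overlaps Rrnad1 on the other strand, which fell by 0.73 on the log2 scale (SE 0.20, adjusted p = 0.0146), and whether counting used strand is not given in the sources used here, so reads of these 2 genes may be mixed. Of the 67 members whose span overlaps no other tested gene, 67 rose. Of the 10 members whose span does overlap one, all but Mrpl24 rose as well.

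**Figure D4:**
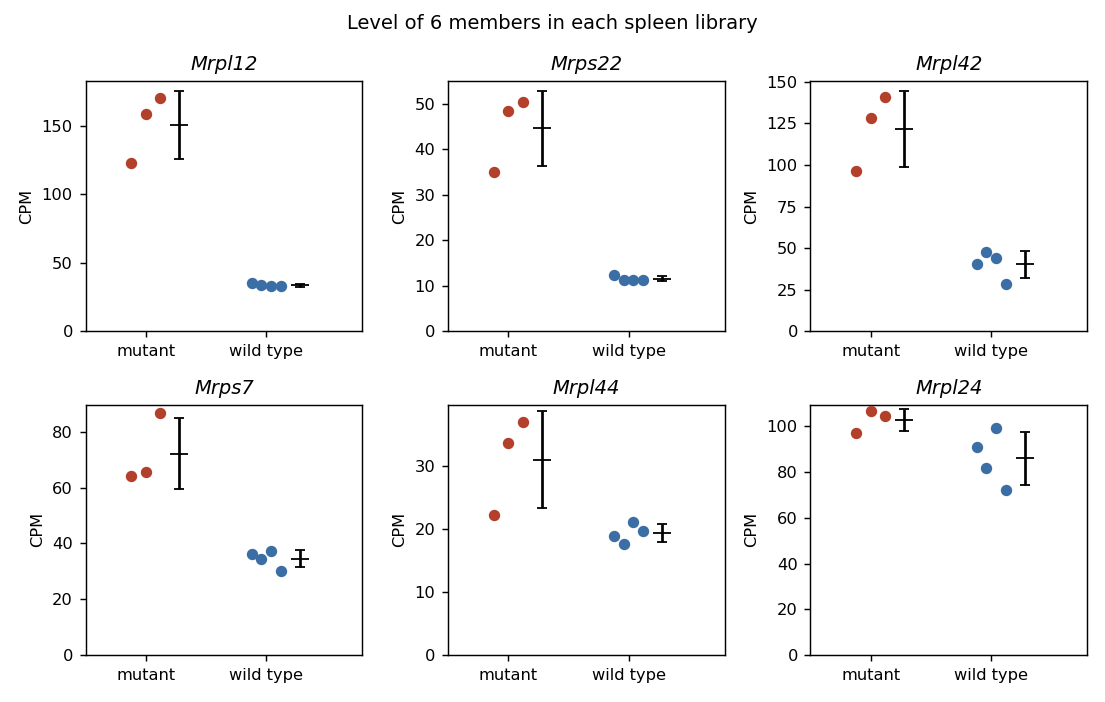
CPM (vertical axis, from 0) of 6 genes in each spleen library, mutant left and wild type right; points are libraries and the black marks give mean ± SD (n = 3 and 4). The groups are separate for each gene shown except Mrpl24, where wild-type 3 at 99.2 CPM lies above mutant 1 at 97.2 CPM.

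Other members named for their known roles rose as well. Mrpl44, which has an RNase III-like fold, stood at 22.3, 33.7 and 37.0 CPM in mutant spleens, against 18.9, 17.7, 21.0 and 19.8 CPM in wild type. Mutant 1 lay close to wild-type 3, and the log2 fold change was 0.68 (SE 0.20, adjusted p = 0.0202). The call was lost without mutant 2 (adjusted p = 0.0645), mutant 3 (0.0569), wild-type 1 (0.0576) or wild-type 2 (0.0546). Scaling by library size alone also lost the call (adjusted p = 0.129), and adjusted p ran from 0.000906 to 0.155 over all alternatives. Mrps7, which organises the head of the small subunit, rose by 1.06 (SE 0.16) with 64.2, 65.5 and 86.9 CPM in mutant spleens, against 36.2, 34.4, 37.3 and 30.3 CPM in wild type. Mrps30, a large-subunit protein in spite of its name, rose by 1.19 (SE 0.17). The 3 paralogues of bacterial S18 gave log2 fold changes of 1.02 for Mrps18a, which sits in the large subunit, 1.32 for Mrps18b and 1.30 for Mrps18c, both in the small subunit (SE 0.15, 0.18 and 0.22). All 3 rose, with adjusted p of 0.00112, 0.000856 and 0.00218.

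Mrps24, Mrpl55 and Mrps6 had the lowest mean CPM over all libraries, a level that also depends on gene length. Mrps24, a homologue of a bacterial protein of the entry channel for messenger RNA, had 18.5, 14.0 and 27.4 CPM in mutant spleens, against 9.90, 9.40, 9.91 and 13.8 CPM in wild type. Mutant 2 lay just above wild-type 4, and the log2 fold change was 0.89 (SE 0.27, adjusted p = 0.0224). Without mutant 3 (adjusted p = 0.0517), wild-type 1 (0.0634), wild-type 2 (0.0543) or wild-type 3 (0.0618) it was not called. Scaling by library size alone also lost the call (adjusted p = 0.105), and adjusted p ran from 0.00437 to 0.166 over all alternatives. Mrpl55 rose by 1.32 (SE 0.22). Mrps6 varied most among mutants, with 16.5, 22.7 and 36.0 CPM, against 8.02, 8.48, 13.1 and 11.3 CPM in wild type (log2 fold change 1.29, SE 0.31, adjusted p = 0.00848). Without wild-type 1 and 2 together it was not called (adjusted p = 0.0822, from 0.000385 to 0.0822 over all alternatives). Other small increases, chosen after their values were seen, were 0.59 for Mrpl53, 0.59 for Mrpl43 and 0.78 for Mrpl10, the anchor of the stalk on which the Mrpl12 protein sits.

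The order of levels within the family was similar in both groups. Across the 77 genes, Spearman's rho between mean CPM in mutant and wild-type spleens was 0.90, and 0.94 for CPM per kilobase of exon; genes are not independent replicates and both groups share the same gene lengths. The size of the increase had a rho of 0.012 with mean CPM. As a share of the family's summed CPM, 15 genes were higher in every mutant than in every wild-type library and 12 were lower, with the other genes overlapping. Such shares are tied to each other, since a larger share of some genes lowers that of the rest. No such count was made over all tested genes. Per kilobase, Mrpl42 was at 179 CPM in mutant and 59.1 CPM in wild-type spleens, and Mrpl12 at 115 and 25.6 CPM in mutant and wild-type spleens. Mrpl24 was at 66.0 CPM per kilobase in mutant and 55.2 CPM per kilobase in wild type.

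Promoter windows were read to see what the members share beyond their expression. RefSeq windows of GRCm38.p6, from 250 bases before to 50 after the start, were found for 68 of the 77 genes (74 windows); the others were Mrpl13, Mrpl15, Mrpl19, Mrpl38, Mrpl4, Mrpl54, Mrps28, Mrps34 and Mrps35. They were searched on both strands for GCGCATGC (nuclear respiratory factor 1, NRF1), CCGGAAG (the ETS family, which includes GABPA) and AAGATGGC (YY1). NRF1 letters were in 10.8% of member windows, against 4.62% of windows of all tested genes and 2.71% of all windows. ETS letters were in 33.8% of member windows, against 15.4% and 8.86%, and YY1 letters in 16.2%, against 3.90% and 2.75%. Median GC content was 58.5% in member windows and 60.0% in those of all tested genes. The median increase was not larger among members with a match: the log2 fold change was 1.14 with and 1.29 without the NRF1 letters (8 and 60 genes), 1.18 and 1.29 for ETS (25 and 43 genes), and 1.23 and 1.29 for YY1 (12 and 56 genes). A match is a description of letters, and binding was not measured.

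The bases upstream of the RefSeq start are shown for the members with the largest increases, the one without a call, and 2 that hold several matches. They are printed 5′ to 3′ on the gene's own strand, with any match to the 3 motifs in capitals. Mrpl12 (chr11:120484387-120484636, plus strand) and Mrpl24 (chr3:87919294-87919543, plus strand), at the top and the bottom of the family, hold none of these letters there. Mrps22 (chr9:98601680-98601929, minus strand) holds the ETS letters 11 bases before the start. Mrpl22 (chr11:58171414-58171663, plus strand) holds ETS letters 53 and NRF1 letters 33 bases before it. Mrpl32 (chr13:14613038-14613241, minus strand, up to the start of its neighbour) holds NRF1 letters 87, 85, 66 and 22 bases before it, the first 2 of them overlapping.
Mrpl12: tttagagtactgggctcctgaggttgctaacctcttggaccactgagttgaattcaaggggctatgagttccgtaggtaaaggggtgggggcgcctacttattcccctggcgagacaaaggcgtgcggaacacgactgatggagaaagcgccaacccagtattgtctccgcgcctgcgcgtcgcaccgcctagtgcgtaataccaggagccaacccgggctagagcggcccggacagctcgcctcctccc
Mrps22: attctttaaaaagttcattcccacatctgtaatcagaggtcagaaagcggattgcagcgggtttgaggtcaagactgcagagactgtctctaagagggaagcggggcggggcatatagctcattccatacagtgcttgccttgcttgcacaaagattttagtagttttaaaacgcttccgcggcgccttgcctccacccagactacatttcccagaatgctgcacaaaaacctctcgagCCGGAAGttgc
Mrpl22: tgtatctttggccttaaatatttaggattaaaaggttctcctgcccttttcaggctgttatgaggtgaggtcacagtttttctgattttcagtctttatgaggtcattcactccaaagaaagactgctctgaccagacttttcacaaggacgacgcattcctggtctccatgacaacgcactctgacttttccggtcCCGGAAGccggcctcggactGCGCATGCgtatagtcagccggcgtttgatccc
Mrpl32: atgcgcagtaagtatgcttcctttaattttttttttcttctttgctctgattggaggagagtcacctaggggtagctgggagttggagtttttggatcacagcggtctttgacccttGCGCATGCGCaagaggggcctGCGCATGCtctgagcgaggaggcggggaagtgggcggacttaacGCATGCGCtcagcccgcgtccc
Mrpl24: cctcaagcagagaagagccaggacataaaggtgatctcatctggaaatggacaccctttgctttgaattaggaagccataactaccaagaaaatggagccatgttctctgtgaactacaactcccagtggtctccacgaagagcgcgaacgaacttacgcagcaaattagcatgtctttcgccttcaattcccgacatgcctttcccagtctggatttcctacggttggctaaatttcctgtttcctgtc

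Some members start back to back with another gene, and how often genes in general do so was not counted. A neighbour on the other strand, starting at most 500 bases upstream, was found for 23 members. The pair Mrpl46 and Mrps11 consists of 2 members whose starts are 42 bases apart, and the log2 fold changes were 1.50 for Mrpl46 (SE 0.19) and 1.58 for Mrps11 (SE 0.20). Mrpl46 stood at 34.5, 48.0 and 49.8 CPM in mutant spleens, against 16.4, 17.2, 16.3 and 12.6 CPM in wild type, and Mrps11 at 30.8, 40.4 and 47.1 CPM in mutant spleens, against 15.0, 14.5, 12.5 and 10.9 CPM in wild type. The whole stretch between them (chr7:78783090-78783130, plus strand) holds none of the 3 motifs.
Mrpl46 to Mrps11: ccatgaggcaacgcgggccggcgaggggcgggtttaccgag

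Of 20 tested neighbours outside the family, 12 rose (60%), 0 fell and 8 were not called, against 28.5% of all tested genes that rose. The examples were chosen after their values were seen. Tcp1, a subunit of the cytosolic chaperonin and neighbour of Mrpl18, rose by 1.60 (SE 0.15), and Psma2, a proteasome subunit beside Mrpl32, by 1.48 (SE 0.14). Ndufb5, a subunit of respiratory complex I beside Mrpl47, rose by 1.31 (SE 0.16), and Sars2, the mitochondrial seryl-tRNA synthetase beside Mrps12, by 1.15 (SE 0.16). Other neighbours were not called while their partner rose. Tmem63b, a membrane channel beside Mrpl14, was at 0.05 on the log2 scale (SE 0.15, adjusted p = 0.787), and Mrpl14 one of 1.06 (SE 0.22). Gga3, a trafficking adaptor beside Mrps7, was at -0.19 (SE 0.16, adjusted p = 0.351). Fau, which encodes a ribosomal protein fused to a ubiquitin-like domain and lies beside Mrpl49, was at -0.24 (SE 0.15, adjusted p = 0.199).

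Genes for mitoribosome proteins that carry other names rose too. All 6 of these genes rose, with a median log2 fold change of 1.34. Ict1, a peptidyl-tRNA hydrolase built into the large subunit, stood at 44.4, 79.9 and 65.3 CPM in mutant spleens, against 16.3, 17.5, 17.4 and 15.9 CPM in wild type, and rose by 1.91 (SE 0.20). Ptcd3, an RNA-binding protein of the small subunit, rose by 1.38 (SE 0.12), and Dap3, a GTP-binding protein of the small subunit, by 1.17 (SE 0.12).

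Among genes that build and serve the mitoribosome, some rose and others were not called. Of 27 assembly genes 16 rose and 0 fell, with a median log2 fold change of 0.58, and 9 rose without wild-type 1 and 2. Among them were Rnmtl1 (1.55, SE 0.19), a methyltransferase of the large ribosomal RNA, and the GTPases Gtpbp10 (1.29, SE 0.19) and Mtg1 (1.07, SE 0.16). Of 18 genes for translation factors and their partners 10 rose and 0 fell, with a median of 0.53, and 5 rose without wild-type 1 and 2. Gfm1, the elongation factor that moves the ribosome along, rose by 1.60 (SE 0.17), the recycling factor Mrrf by 1.31 (SE 0.15), and Slirp, which stabilises mitochondrial messenger RNA, by 1.23 (SE 0.17). Of 18 genes for mitochondrial transcription and RNA processing 14 rose and 0 fell, with a median of 0.81, and 8 rose without wild-type 1 and 2. They included 1110008L16Rik (1.88, SE 0.20), which RefSeq names Prorp, the nuclease subunit of mitochondrial RNase P, and the RNA-degrading partners Pnpt1 (1.01, SE 0.11) and Supv3l1 (1.27, SE 0.16). Without wild-type 1 and 2, fewer of all tested genes rose as well, 2923 against 4334. Genes of the mitochondrial genome itself were not analysed here.

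**Figure D5:**
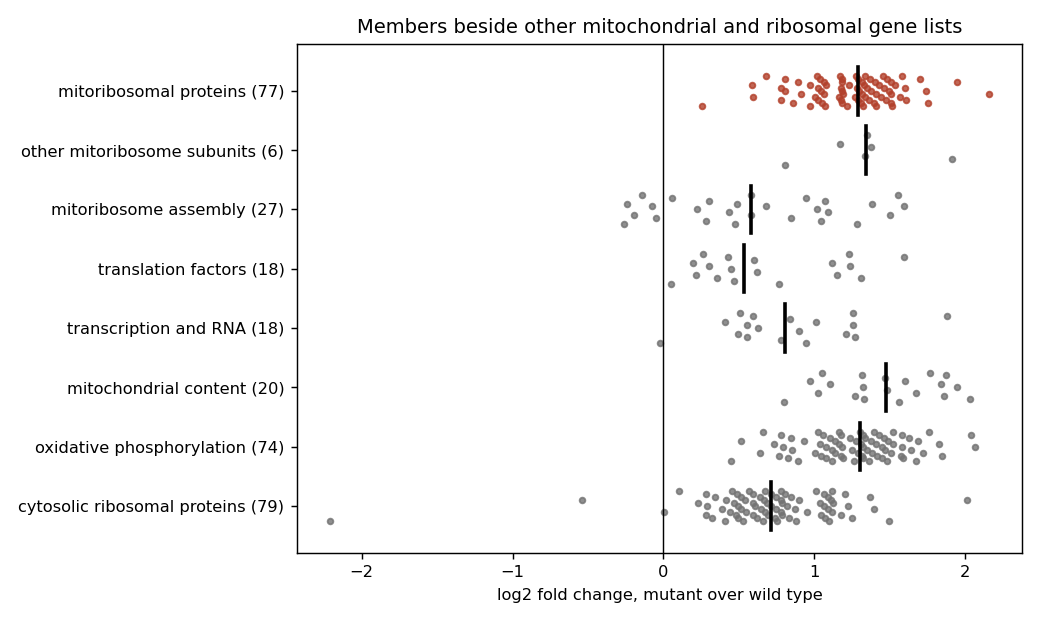
Log2 fold change of each tested gene (points, mutant over wild type) in the family and in 7 other lists, with the number of tested genes in brackets; the vertical mark is the median of each list. Medians are 1.29 for the family, 1.34 for other mitoribosome subunits, 1.30 for oxidative phosphorylation, 1.47 for mitochondrial content, and 0.53 to 0.81 for the remaining lists.

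Other mitochondrial genes rose as well. Of 74 nuclear genes for oxidative phosphorylation subunits 73 rose and 0 fell, with a median log2 fold change of 1.30 beside 1.29 for the ribosomal family. Uqcrq of complex III rose by 1.64 (SE 0.14), Ndufa9 of complex I by 1.25 (SE 0.12) and Atp5j of the ATP synthase by 1.39 (SE 0.13). Of 20 genes for import, chaperones and membranes of mitochondria 20 rose, with a median of 1.47. The import channel subunit Timm23 rose by 1.77 (SE 0.13), the import receptor Tomm22 by 1.56 (SE 0.14), and the prohibitin Phb by 1.84 (SE 0.18). Of 79 tested genes for cytosolic ribosomal proteins 58 rose, with a median of 0.71, and 1, Rps4l, fell. Rps27l (2.01, SE 0.16), Rpl15 (1.39, SE 0.16) and Rps2 (1.49, SE 0.19) had the smallest p. Without wild-type 1 and 2, the count of cytosolic genes that rose was 25, while that of all tested genes went to 2923 from 4334.

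Regulators of mitochondrial biogenesis went in both directions, as did tested genes as a whole. Of 13 such genes 7 rose (53.8%) and 3 fell, against 28.5% and 28.9% of all tested genes. Without wild-type 3 and 4, where 3154 of all tested genes rose and 2276 fell, 6 regulators rose and 1 fell. Over all alternatives 3 to 8 rose. Myc, a transcription factor that drives growth and ribosome production, stood at 283, 455 and 470 CPM in mutant spleens, against 86.7, 99.5, 102 and 73.7 CPM in wild type. Mutant 1 was again the lowest of its group and the groups were far apart (log2 fold change 2.15, SE 0.22, adjusted p = 0.000333). Gabpa, the DNA-binding part of an ETS factor, rose by 0.73 (SE 0.12), and the coactivator Ppargc1b by 1.10 (SE 0.21). The 3 that fell were Ppargc1a, a coactivator best known from muscle and brown fat, by 3.52 (SE 0.69), Mycn by 1.98 (SE 0.42), and the nuclear receptor Esrra by 0.59 (SE 0.17). Ppargc1a was scarce in both groups, at 0.165 CPM in mutant and 2.10 CPM in wild-type spleens on average.

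Marker transcripts of several cell types also differed between the groups, and their part in the family's increase was not tested. Of 10 genes of immature T cells 9 rose and 1 fell, with a median log2 fold change of 5.13, and their summed level was 2699 to 5739 CPM in mutant spleens and 326 to 395 CPM in wild-type spleens. Rag1, which cuts antigen receptor genes, rose by 8.55 (SE 0.49), and Cd1d1, an antigen-presenting molecule, fell by 1.75 (SE 0.18). Of 10 mature B cell genes 10 fell, with a median of -5.37, among them Cd79b by 4.75 (SE 0.43). Of 8 natural killer cell genes 6 fell and 1 rose, with a median log2 fold change of -5.06. Klre1, a receptor, fell by 7.36 (SE 0.45), and Gzma, a granule protease, rose by 2.76 (SE 0.25). The list summed to 264 to 529 CPM in mutant spleens and 175 to 226 CPM in wild-type spleens. This sum includes Gzma, the only gene of the list called higher. Of 10 mature T cell genes 3 rose and 3 fell, near the 28.5% and 28.9% of all tested genes. Of 10 stromal and endothelial genes 1 rose and 7 fell. Of 10 macrophage genes 4 fell and of 10 neutrophil genes 3 fell, with none called higher in either list. These shares are near the 28.9% of all tested genes that fell. The median log2 fold change was -1.59 (highest -0.78) for macrophage and -1.54 (highest -0.68) for neutrophil genes. Macrophage genes summed to 397 to 2245 CPM in mutant and 3622 to 4416 CPM in wild-type spleens. Neutrophil genes summed to 21.8 to 663 CPM in mutant and 682 to 1757 CPM in wild-type spleens. Of the markers in these lists, none was at 0 in every library.

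Marker transcripts of cell division and of red cell precursors varied within wild type as well. Of 14 cell cycle genes 11 rose, with a median log2 fold change of 1.88, and their summed level was 7088 to 8119 CPM in mutant spleens and 1047 to 4681 CPM in wild-type spleens. Relative to the wild-type mean, the median cell cycle gene stood at 1.92, 2.22 and 2.02 on the log2 scale in mutant libraries 1, 2 and 3, and at 0.46, 0.93, -0.86 and -0.53 in wild-type libraries 1 to 4. The median mitoribosomal gene ranged from -0.078 to 0.065 in the same wild-type libraries. Any part of cell division in the family's increase was not tested. Of 12 erythroid genes 0 rose and 0 fell by edgeR, with a summed level of 5237 to 28832 CPM in mutant and 3395 to 45600 CPM in wild-type spleens. Leaving out wild-type 1 and 2, which had the higher cell cycle and erythroid levels, 66 members rose with a median of 1.32. Leaving out wild-type 3 and 4 instead, 72 rose with a median of 1.31. Of all tested genes 2923 and 3154 rose in these fits, against 4334 with every library. Both choices were made after seeing the data.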

How the data were processed

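The submitters' processing notes name TopHat2 2.0.12, Subread 1.4.6 with featureCounts, edgeR, bcl2fastq 2.17.1.14 and the build mm10. Strand use in counting is not given in the sources used here. From the table of counts that the authors deposited all values were computed, and their CPM table was not used. All 7 libraries entered edgeR 4.0.16 (R 4.3.3) with TMM scaling, filterByExpr and group as the only term, fitted over all 15188 genes that passed the filter. CPM values use these TMM factors, and SE, a standard error, is the absolute log2 fold change over the root of F. No 2 libraries of a group agreed within sampling noise. Spans and counts were taken from the table, exon lengths from GENCODE M21, which may differ from the counted models. Subunit and origin were assigned by hand from the standard nomenclature.

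Members and lists were chosen with earlier results of these data known. Members named by rule were the 8 with the largest increase among those called, the 4 highest and 3 lowest by mean CPM, uncalled members, 8 with known roles, and in each other list up to 3 genes with the smallest p. Simulated counts for this comparison had 200 of 15188 genes changed, and 14877 were tested. Of 2-fold changes 6.38% were called and of 4-fold changes 60.8%. Unchanged genes made up 9.72% of calls, and 0 calls went the wrong way. In the data 4334 genes rose and 4390 fell, far more than were changed there, so these rates may not hold for the data. Alternatives were RLE factors, library size alone, other filters, DESeq2 1.42.0, limma-voom (limma 3.58.1), the replicate number as a block, a stricter threshold, and libraries left out.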

Additional observations from a re-analysis of the deposited data

Results flagged for a closer look

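With 4 wild-type libraries, 7 of the 77 genes had 1 wild-type library far from the other 3, measured as its gap to the nearest over the group's range; chance flags about 1 in 20 groups. Wild-type 4 was the library for 4 of them. It was high for Mrps24, at 13.8 CPM against 9.40 to 9.91 CPM in the others, and for Mrpl52, at 22.1 CPM against 16.8 to 17.7 CPM. It was low for Mrps21, at 26.5 CPM against 38.0 to 40.1 CPM, and for Mrps25, at 20.9 CPM against 26.7 to 27.7 CPM. Wild-type 3 was low for Mrpl13, at 21.8 CPM against 24.2 to 24.6 CPM. Wild-type 2 was low for Mrps33, at 27.8 CPM against 30.4 to 30.8 CPM. Wild-type 1 was high for Mrps22, at 12.4 CPM against 11.2 to 11.3 CPM. In each of these 7 genes every mutant library still lay above every wild-type library.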

How the results depend on the processing

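Across all alternatives 66 to 76 members rose, 0 fell and 0 had a log2 fold change below 0. The family's median log2 fold change moved beyond the spread between replicates in 2 cases. Scaled by library size alone it was 1.04 and 70 members rose, against 1.29 with the TMM factors, which run from 0.861 to 1.19. The median of all tested genes moved down with it, to -0.26 from -0.02. Leaving out 1 library at a time gave medians of 1.15 to 1.53, highest without mutant 1, and 74 to 76 members that rose. Of the values of named members under alternatives, 305 kept their direction and side of the threshold and 18 kept only the direction (Mrpl44, Mrps24 and Mrps6). The fit with the replicate number as a block also leaves out wild-type 4, which has no same-numbered mutant. In it 72 members rose with a median of 1.22, and Mrpl44 was not called (adjusted p = 0.0819); without wild-type 4 and with no block, 76 rose with a median of 1.23 and Mrpl44 was called (adjusted p = 0.0457). Correlations of same-numbered libraries, over genes centred within each group, were 0.042, -0.19 and 0.10. So few libraries cannot show whether the numbers pair the spleens, and the labels do not say. At an adjusted p under 0.01, 73 members rose, and 2924 of all tested genes fell, against 4390. Without wild-type 3 and 4, 2276 of all tested genes fell. Assembly genes that rose numbered 8 to 18 over the alternatives, translation factors 5 to 13, transcription and RNA genes 8 to 16, regulators 3 to 8 and cytosolic ribosomal protein genes 25 to 71; the cause was not tested.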
